A study of Mus musculus with 7 samples.

Results

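A set of 36 nuclear genes that build, shape, move and remove mitochondria was followed in mouse breast cancer cells grown in denervated or control mammary fat pads. The genes were given by symbol. Each was matched to its protein-coding entry among 57126 genes of the deposited expression table, and to the entry with the highest mean where a symbol had several. All 36 were found: 16 act in biogenesis and mitochondrial DNA (mtDNA) upkeep, 10 in fusion and fission, 5 in transport and 5 in mitophagy.

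Transcripts were measured by RNA-seq in 4T1 cells, a BALB/c-derived triple-negative breast cancer line that here carried mCherry. The fat pads of BALB/c mice were injected with 100 µL of saline (phosphate-buffered, PBS), alone in the controls and with 0.3 units of Botox in the treated mice, and 7 days later with the tumor cells. Botox holds a botulinum toxin, which stops nerve endings from releasing transmitter, and the comparison asks how this chemical denervation changed the transcripts of the cancer cells. Once tumors had appeared, mCherry-positive cells were sorted by flow cytometry from 3 tumors after PBS and 4 after Botox, each library from a separate mouse by its label. The groups come from the sample titles, since the treatment field of all 7 samples reads "Not treated".

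Mitochondria are made from nuclear and mitochondrial genes together. Coactivators of the PGC-1 family and the factors NRF1, GABP and ERRα drive nuclear genes for mitochondrial proteins, among them TFAM and POLRMT, which package and transcribe mtDNA. The organelles then fuse through mitofusins and OPA1, divide through DRP1, travel on motors held by Miro and TRAK proteins, and are degraded by mitophagy when damaged or during hypoxia. Miro proteins and tunneling nanotubes, thin actin-based bridges between cells, are known for their part in the passage of mitochondria from one cell to another.

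NRF1 and GABP are themselves among the 36 genes, and both bind promoters of genes for mitochondrial proteins. RefSeq promoter windows of 300 bases on build GRCm38.p6 (250 before and 50 after the annotated start) could be matched to 34 of the 36 genes, with 44 windows in all. The letters GCGCA, any base, then GCGC, a core of NRF1 sites, were found on either strand in 5 of 44 windows (11.4%), those of Bnip3, Oma1, Opa1, Pink1 and Polrmt, against 4.60% of all 32851 windows. CCGGAAGT, a core of sites for GABP and other ETS factors, was likewise found on either strand in 8 windows (18.2%) of 7 genes, namely Fis1, Mfn1, Mief1, Phb2, Polg, Tfam and Twnk, against 3.89% of all windows. Below are 3 windows with the NRF1 letters and the window with the most ETS matches, one from each of the roles that hold such letters. Capitals mark the matched letters.
Polrmt, chr10:79746532-79746831, minus strand: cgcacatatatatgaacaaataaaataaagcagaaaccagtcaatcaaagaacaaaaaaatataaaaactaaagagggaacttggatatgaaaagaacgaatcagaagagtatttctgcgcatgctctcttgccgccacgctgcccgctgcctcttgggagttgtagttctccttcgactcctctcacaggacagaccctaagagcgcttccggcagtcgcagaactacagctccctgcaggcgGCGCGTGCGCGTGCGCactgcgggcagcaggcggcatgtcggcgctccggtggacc
Opa1, chr16:29579084-29579383, plus strand: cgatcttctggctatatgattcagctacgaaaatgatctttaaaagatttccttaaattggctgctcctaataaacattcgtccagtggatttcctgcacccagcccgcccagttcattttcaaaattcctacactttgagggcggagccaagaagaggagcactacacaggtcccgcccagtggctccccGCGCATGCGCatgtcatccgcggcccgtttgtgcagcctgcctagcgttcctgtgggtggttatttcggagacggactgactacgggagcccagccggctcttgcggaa
Bnip3, chr7:138909457-138909756, minus strand: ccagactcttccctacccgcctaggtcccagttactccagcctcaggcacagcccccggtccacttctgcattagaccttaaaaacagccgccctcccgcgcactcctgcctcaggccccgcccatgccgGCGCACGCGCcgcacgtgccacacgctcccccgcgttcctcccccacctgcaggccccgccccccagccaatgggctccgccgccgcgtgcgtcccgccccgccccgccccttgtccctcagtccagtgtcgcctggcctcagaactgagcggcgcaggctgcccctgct
Phb2, chr6:124712039-124712338, plus strand: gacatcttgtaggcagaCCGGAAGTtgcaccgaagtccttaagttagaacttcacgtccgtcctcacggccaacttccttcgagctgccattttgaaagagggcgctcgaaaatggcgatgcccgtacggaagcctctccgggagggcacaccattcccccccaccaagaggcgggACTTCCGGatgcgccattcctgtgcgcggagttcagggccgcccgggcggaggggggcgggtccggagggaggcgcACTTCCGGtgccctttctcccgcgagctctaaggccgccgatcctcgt
The run of capitals in the Polrmt window holds 2 overlapping matches, and the Phb2 window holds 3 separate ones. A match is a run of letters, and binding was not measured here.

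Values are TPM, reads per unit of gene length rescaled to 1 total for all libraries. The length used was the whole genomic span with introns, so the levels of different genes are not compared below. The libraries held an estimated 8.56 to 13.6 M reads. The small RNA 7SL took 47.9% to 52.0% of TPM after PBS and 53.0% to 70.4% after Botox. As the total is fixed, a larger 7SL share leaves less TPM for the other genes together, though not for each of them. The part of 7SL in the fold changes below was not tested. The median of 11260 tested genes was at a log2 fold change of -0.46 after Botox, with 93.8% of genes below 0 and Botox 4 the lowest library in 75.3% of them. Division by size factors, which set the typical gene equal across libraries, brought this median to -0.038, and both scales are used below. Botox 2 and Botox 4 also lacked weak genes: 2.98% and 2.41% of their detected genes had 1 to 4 estimated reads, against 13.9% to 23.5% in the others. Markers of tumor cells (Krt8, Krt18, Epcam, Cdh1 and Vim) were present in every library, with summed levels of 712 to 784 TPM after PBS and 209 to 742 TPM after Botox. The 12 macrophage markers, 10 of them above the filter and none at 0 in all libraries, summed to 722 to 1051 TPM after PBS and 189 to 952 TPM after Botox. The largest values in the macrophage sums were those of Lyz2 (means of 336 and 233 TPM after PBS and Botox) and Apoe (334 and 177 TPM). The 6 neutrophil markers summed to 5.10 to 6.96 TPM and 0.843 to 5.61 TPM. The 6 markers of T or NK cells summed to 0.597 to 1.96 TPM after PBS and 0.513 to 1.81 TPM after Botox. Of these 6, only Cd3d was at 0 in all 7 libraries. The 7 fibroblast markers summed to 5.32 to 8.22 TPM after PBS and 3.19 to 4.01 TPM after Botox, without overlap. Sums for B cells, endothelial cells, adipocytes, neurons or Schwann cells, and red blood cells overlapped between the groups. The part of these other cells in the values below was not tested. In bulk RNA, fewer cells of a type and less RNA per cell cannot be told apart.

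None of the 36 genes passed the test between Botox and PBS. Of the 25 that reached 1 TPM in 3 or more libraries, 0 were called higher or lower at an adjusted p of 0.05 (limma; the smallest adjusted p was 0.42), against 0% of all 11260 genes in either direction. Their log2 fold changes ran from -0.89 (Bnip3l) to 0.46 (Slirp), and 23 of 25 were negative, beside 97.3% of all tested protein-coding genes. The median was -0.40, beside -0.46 over all tested genes. At an unadjusted p of 0.05, 1 of 25 was lower (Dnm1l) and 0 higher, beside 7.37% and 0.133% of all genes. In 8 of the 25 all Botox libraries were below all PBS libraries, beside 22.4% of all genes, and in 0 of 25 above, beside 0.151%. Shares of all genes, here and below, are over the 11260 tested genes, of which 7241 are protein-coding, as are the 25. The shares of calls and of groups apart were not computed for protein-coding genes alone. With size factors the median of the 25 was -0.0041, with 12 values above 0 and 13 below, and the adjusted p was at least 0.92 for each. By role, the median log2 fold change was -0.35 in biogenesis and upkeep (11 genes tested), -0.38 in fusion and fission (7), -0.40 in transport (3) and -0.68 in mitophagy (4). Without Botox 4 they were -0.14, -0.23, -0.21 and -0.47, beside -0.26 over all tested genes. With size factors the same medians were -0.0041, 0.044, 0.078 and -0.19.

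**Figure D1:**
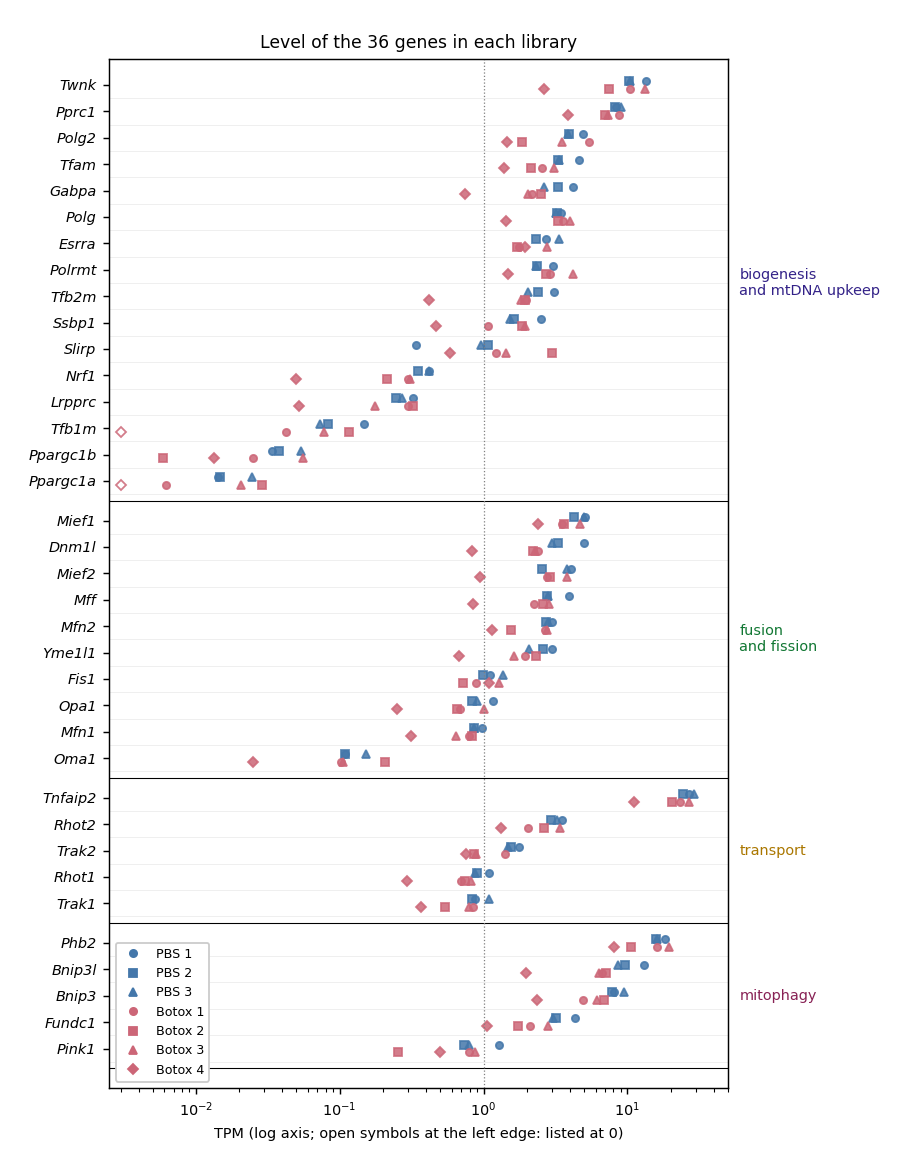
Level of each of the 36 genes in TPM (log axis) in each library, with symbols for the libraries and rows grouped by role; the dotted line is at 1 TPM and open symbols at the left edge are values listed at 0. Botox 4 is the lowest library in 31 of the 36 genes, and PBS 1 the highest in 22.

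The mean TPM was lower after Botox in 34 of 36 genes and higher in Slirp and Polrmt. Botox 4 was the lowest library in all but Esrra, Ppargc1b, Fis1 and Pink1, which were lowest in Botox 2, and Slirp, which was lowest in PBS 1. PBS 1 was the highest library in 22 genes. The plot of levels by library shows this order in each role.

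Among the genes for mtDNA, Tfam, which packages mtDNA and starts its transcription, was at 4.64, 3.30 and 3.35 TPM in PBS 1 to 3 and at 2.57, 2.15, 3.06 and 1.38 TPM in Botox 1 to 4. All 4 Botox libraries lay below the PBS libraries. Its log2 fold change was -0.55 ± 0.30 (SE; 95% interval -1.20 to 0.11; limma adjusted p = 0.42), and -0.090 ± 0.13 with size factors. Tfb2m, the second transcription factor of mtDNA, was at 3.07, 2.40 and 2.04 TPM after PBS and at 1.96, 1.93, 1.83 and 0.417 TPM after Botox. The groups did not overlap, but PBS 3 and Botox 1 differed little and Botox 4 stood far below the rest. The log2 fold change of Tfb2m was -0.52 ± 0.33 (SE; limma adjusted p = 0.42), and -0.17 ± 0.19 with size factors.

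Polrmt, the RNA polymerase of mitochondria, and Polg, the catalytic subunit of the mtDNA polymerase, had 2 of the 3 highest scaled fold changes among the upkeep genes, after Slirp; both were singled out after their values were seen. Polrmt (ENSMUSG00000020329, mm39 chr10:79571957-79582415, minus strand) was at 3.06, 2.36 and 2.33 TPM after PBS and at 2.90, 2.72, 4.15 and 1.47 TPM after Botox. Here the groups overlapped, with Botox 3 the highest library and Botox 4 the lowest. Divided by size factors, Polrmt was at 2.19, 1.96 and 1.84 after PBS and at 2.74, 3.10, 3.56 and 3.38 after Botox, and no Botox library was as low as a PBS library. The log2 fold change was 0.049 ± 0.31 (SE) on deposited TPM and 0.48 ± 0.12 with size factors (95% interval 0.19 to 0.78; limma unadjusted p = 0.00604, adjusted p = 0.92). It was 0.47 with size factors and without Botox 2 and Botox 4.

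Polg (ENSMUSG00000039176, mm39 chr7:79095979-79116110, minus strand) was at 3.43, 3.25 and 3.19 TPM after PBS and at 3.56, 3.30, 4.01 and 1.43 TPM after Botox. On this scale 3 Botox libraries lay at or above the middle PBS library and Botox 4 far below. Size-factor-scaled Polg was at 2.46, 2.71 and 2.52 after PBS and at 3.36, 3.76, 3.44 and 3.28 after Botox, with no overlap. The log2 fold change of Polg was -0.13 ± 0.32 (SE) on deposited TPM and 0.32 ± 0.11 with size factors (95% interval 0.066 to 0.58; limma unadjusted p = 0.0209, adjusted p = 0.92). Polrmt, Polg and Slirp were the 3 of 25 genes higher at an unadjusted p of 0.05 with size factors, beside 2.26% of all genes; 0 of 25 were lower, beside 2.14%. The same 3 genes were those with all Botox libraries above all PBS libraries, beside 3.93% of all genes, and 0 of 25 had them all below, beside 3.88%. Slirp passed the filter mainly through its Botox libraries, where it was higher, and Polrmt and Polg were picked for these values. Both counts are therefore description and lend no support to a difference. With size factors 1 gene of the 11260, the pseudogene Gm16304, was called higher (0.00888%) and 0 (0%) lower.

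The other genes of mtDNA replication had scaled fold changes close to 0. Polg2, the accessory subunit of the polymerase, averaged 4.25 ± 0.606 TPM (SD) in the 3 PBS libraries and 3.05 ± 1.81 TPM in the 4 Botox libraries, with Botox 1 the highest of all libraries at 5.42 TPM. Twnk, the mtDNA helicase, averaged 11.4 ± 1.81 and 8.45 ± 4.52 TPM. It overlaps Mrpl43 on the opposite strand over 780 bases, and that gene was at 24.4 TPM after PBS and 14.7 TPM after Botox. Ssbp1, the single-stranded DNA binding protein, averaged 1.89 ± 0.542 and 1.33 ± 0.698 TPM. The scaled log2 fold changes of Polg2, Twnk and Ssbp1 were -0.0061, -0.0041 and -0.012. Tfb1m, a methyltransferase for mitochondrial ribosomal RNA, was below 1 TPM and not tested. It had 0 to 37 estimated reads per library over a span of 38526 bases, and was listed at 0 in Botox 4.

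Of the regulators of nuclear genes for mitochondrial proteins, Gabpa, the DNA-binding subunit of GABP, was at 4.16, 3.30 and 2.64 TPM after PBS and at 2.18, 2.52, 2.05 and 0.738 TPM after Botox. All Botox values were below all PBS values. For Gabpa the log2 fold change was -0.64 ± 0.32 (SE; 95% interval -1.35 to 0.066; limma adjusted p = 0.42), the lowest among the tested upkeep genes, and -0.23 ± 0.18 with size factors. Nrf1, whose site letters are marked above in Polrmt, Opa1 and Bnip3, was too low for the test. It was at 0.417, 0.352 and 0.415 TPM after PBS and at 0.298, 0.212, 0.309 and 0.0498 TPM after Botox. Nrf1 had 54 to 358 estimated reads per library and was singled out after its values were seen. Without the filter its log2 fold change was -0.20 (limma adjusted p = 0.49). Divided by size factors, its Botox libraries were at 0.282, 0.241, 0.265 and 0.115, below its PBS libraries at 0.299, 0.293 and 0.328. Such an order was seen in 3.88% of the tested genes, a set without Nrf1. The gap between the groups was small beside the distance of Botox 4 from the rest.

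Esrra, which encodes the nuclear receptor ERRα, averaged 2.80 ± 0.509 TPM (SD) in the PBS libraries and 2.04 ± 0.487 TPM in the Botox libraries. Its log2 fold change was -0.33 on deposited TPM and 0.13 with size factors. Size-factor-scaled Esrra was at 1.96, 1.94 and 2.64 after PBS and at 1.66, 1.95, 2.37 and 4.49 after Botox. Botox 4 alone lay above the PBS range on that scale. Pprc1, a coactivator of the PGC-1 family, averaged 8.54 ± 0.429 and 6.70 ± 2.04 TPM, with log2 fold changes of -0.35 and 0.20. It was the one coactivator of this family with a level that could be tested. Ppargc1a, which encodes PGC-1α, had 0 to 27 estimated reads per library, and Ppargc1b, which encodes PGC-1β, had 5 to 45. Both were near the limit of detection in these libraries, and Ppargc1a was listed at 0 in Botox 4.

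Slirp and Lrpprc encode partner proteins that bind and stabilise mitochondrial messenger RNAs. Slirp (ENSMUSG00000021040, mm39 chr12:87490666-87498976, plus strand) was at 0.341, 1.07 and 0.954 TPM after PBS and at 1.22, 2.99, 1.43 and 0.585 TPM after Botox. Botox 2 was the highest library and PBS 1 the lowest, and Botox 4 lay among the PBS libraries. These values come from 14, 69 and 65 estimated reads after PBS and 72, 206, 71 and 50 after Botox. Slirp entered the test through 1 PBS and 3 Botox libraries at or above 1 TPM, so it passed the filter mainly through the group where it was higher. The log2 fold change of Slirp was 0.46 ± 0.33 (SE; 95% interval -0.28 to 1.20; limma adjusted p = 0.42). Without PBS 1 it was 0.26, and without Botox 2 it was 0.22. With size factors it was 0.73 ± 0.30 (95% interval 0.017 to 1.43; limma unadjusted p = 0.0461, adjusted p = 0.92), and 0.45 when Botox 2 and Botox 4 were left out as well. Over 3132 of its 8311 bases Slirp overlaps Snw1 on the opposite strand, which was at 1.31 TPM after PBS and 0.549 TPM after Botox. Over 122 bases Slirp also overlaps Alkbh1 on that strand, at 2.22 TPM after PBS and 1.92 TPM after Botox. The strand setting of the read counting is not given in the sources used here.

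Lrpprc was at 0.324, 0.246 and 0.271 TPM after PBS and at 0.300, 0.323, 0.177 and 0.0523 TPM after Botox, too low for the test. Botox 1 and Botox 2 lay within the PBS range, and Botox 3 and Botox 4 below it. Over 3831 of its 85543 bases Lrpprc overlaps the unclassified gene Gm49979 on the opposite strand. That gene was at 5.52 TPM after PBS and 4.54 TPM after Botox. The ratio of Slirp to Lrpprc within a library, which does not depend on that library's scale, was 1.05, 4.36 and 3.51 after PBS and 4.06, 9.26, 8.05 and 11.2 after Botox. All Botox libraries but 1 had higher ratios than any PBS library, and Botox 1 lay between PBS 3 and PBS 2. The geometric means were 2.53 and 7.63, a log2 difference of 1.60 (exact two-sided permutation p = 0.114, where 0.057 is the smallest that 3 against 4 libraries can give; 0.343 adjusted over 4 ratios). Without PBS 1 the log2 difference was 0.96.

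**Figure D2:**
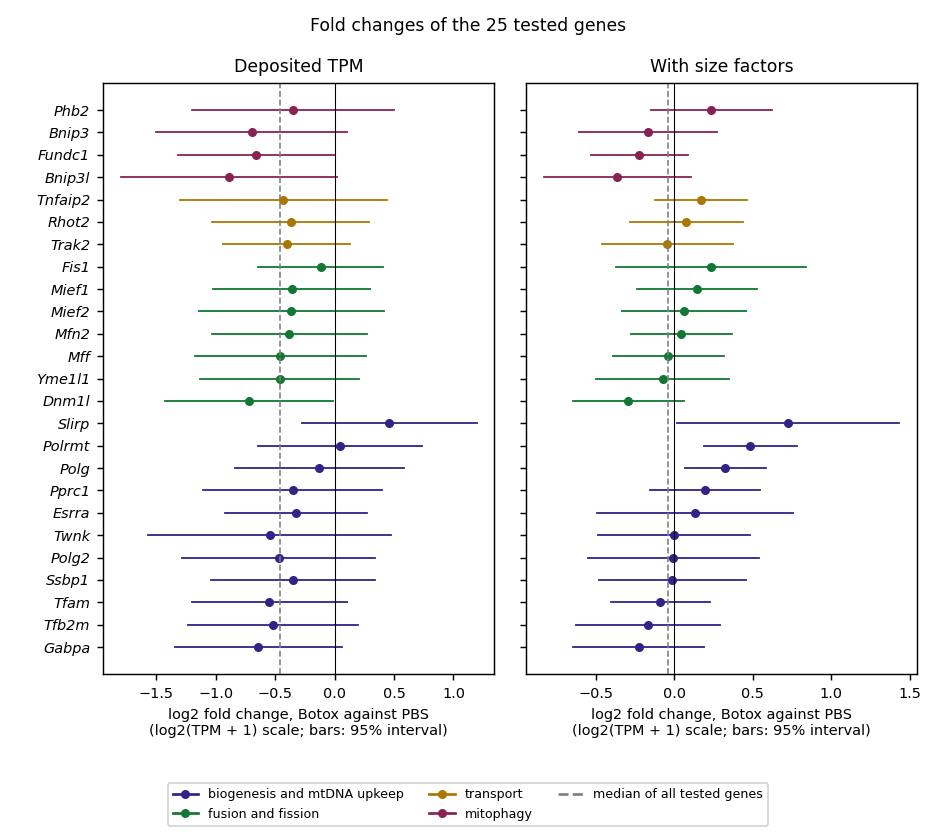
Log2 fold change, Botox against PBS, of the 25 tested genes with 95% intervals, on deposited TPM (left) and with size factors (right), coloured by role; the dashed line is the median of all tested genes, -0.46 on the left and -0.038 on the right. The interval of Dnm1l lies below 0 on the left, and those of Polrmt, Polg and Slirp lie above 0 on the right.

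In fission, Dnm1l, which encodes the GTPase DRP1 that pinches mitochondria apart, had the smallest p of the 25 tested genes on deposited TPM, but not with size factors, where it was that of Polrmt, or without the filter, where Fundc1 was below it. Dnm1l (ENSMUSG00000022789, mm39 chr16:16130094-16176823, minus strand) was at 4.96, 3.28 and 3.01 TPM after PBS and at 2.40, 2.195, 2.29 and 0.826 TPM after Botox. No Botox library reached the lowest PBS library, and PBS 1 and Botox 4 were the extremes. The resulting log2 fold change was -0.72 ± 0.32 (SE; 95% interval -1.43 to -0.012; limma unadjusted p = 0.0468, adjusted p = 0.42). With size factors the levels were 3.55, 2.73 and 2.38 after PBS and 2.27, 2.50, 1.97 and 1.90 after Botox, with an overlap of Botox 2 and PBS 3. On that scale the log2 fold change was -0.29 ± 0.15 (95% interval -0.65 to 0.062; limma adjusted p = 0.92). Of the adaptors that recruit DRP1 to the outer membrane, Mff was at 3.92, 2.77 and 2.79 TPM after PBS and at 2.23, 2.59, 2.84 and 0.842 TPM after Botox. Botox 3 lay within the PBS range and the other Botox libraries under it. For Mff the log2 fold change was -0.45 ± 0.32 (SE; limma adjusted p = 0.42), and -0.039 ± 0.15 with size factors.

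Mief1 and Mief2, which encode the adaptors MiD51 and MiD49, averaged 4.78 ± 0.460 and 3.45 ± 0.797 TPM (SD) in the PBS libraries and 3.56 ± 0.944 and 2.60 ± 1.20 TPM in the Botox libraries. The log2 fold changes of both were -0.36 on deposited TPM and 0.14 and 0.062 with size factors. Fis1, a small outer membrane protein linked to fission, averaged 1.15 ± 0.193 and 0.992 ± 0.243 TPM. Botox 4, the lowest library for most of the 36 genes, had the same level as PBS 1 for Fis1, 1.10 TPM, and after division by its size factor stood at 2.52, above all other libraries at 0.788 to 1.09.

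In fusion, Mfn2, a mitofusin of the outer membrane, was at 2.99, 2.70 and 2.81 TPM after PBS and at 2.66, 1.56, 2.74 and 1.15 TPM after Botox. Botox 3 lay between PBS 2 and PBS 3, and Botox 2 and Botox 4 were far below. On the log2 scale the change of Mfn2 was -0.38 ± 0.29 (SE; limma adjusted p = 0.43), and 0.044 ± 0.14 with size factors. Mfn1, the other mitofusin, was at 0.974, 0.857 and 0.859 TPM after PBS and at 0.794, 0.829, 0.639 and 0.315 TPM after Botox, below 1 TPM in every library and so not tested. Its Botox libraries were all lower than its PBS libraries in TPM, and the groups overlapped after division by size factors. The ratio of Mfn1 to Mfn2 was 0.326, 0.317 and 0.306 after PBS and 0.299, 0.533, 0.233 and 0.274 after Botox. Botox 2 was the highest and the other Botox libraries were the lowest, and the log2 difference of 0.0057 (exact permutation p = 0.914, adjusted p = 0.914) turned to -0.24 without Botox 2.

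Opa1, the GTPase that fuses inner membranes, was at 1.17, 0.837 and 0.904 TPM after PBS and at 0.688, 0.653, 1.01 and 0.251 TPM after Botox. Botox 3 lay inside the PBS range and the other Botox libraries below it. The ratio of Dnm1l to Opa1, a fission gene set against a fusion gene, was 4.24, 3.92 and 3.33 after PBS and 3.49, 3.36, 2.27 and 3.29 after Botox. Its log2 difference was -0.32 (exact permutation p = 0.171, 0.343 adjusted over 4 ratios), and Botox 3 was well below the other libraries. Of the proteases that cut OPA1, Yme1l1 was at 3.00, 2.57 and 2.06 TPM after PBS and at 1.93, 2.32, 1.63 and 0.674 TPM after Botox. Botox 2 lay among the PBS libraries. For Yme1l1 the log2 fold change was -0.46 ± 0.30 (SE; limma adjusted p = 0.42), and -0.073 ± 0.18 with size factors. Oma1, the stress-activated protease for OPA1, averaged 0.123 ± 0.0248 and 0.110 ± 0.0750 TPM, with 15 to 100 estimated reads per library, and was not tested.

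In transport, Rhot1 and Rhot2 encode the Miro GTPases that tie mitochondria to motors. Rhot2 was at 3.51, 2.95 and 3.22 TPM after PBS and at 2.05, 2.64, 3.41 and 1.32 TPM after Botox. Botox 3 lay within the PBS range. For Rhot2 the log2 fold change was -0.37 ± 0.30 (SE; limma adjusted p = 0.44), and 0.078 ± 0.15 with size factors, with an interval of -0.28 to 0.44. Rhot1 averaged 0.954 ± 0.122 TPM (SD) in the PBS libraries and 0.639 ± 0.235 TPM in the Botox libraries, with no overlap of the groups in TPM; it reached 1 TPM in PBS 1 only and was not tested. Divided by size factors, Rhot1 was at 0.686 to 0.783 after PBS and 0.662 to 0.840 after Botox, and these ranges overlapped.

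The TRAK adaptors link Miro proteins to kinesin and dynein. Trak2 was at 1.75, 1.56 and 1.47 TPM after PBS and at 1.40, 0.863, 0.885 and 0.756 TPM after Botox. Botox 1 was close under the PBS libraries and the other 3 Botox libraries lay well below. Its log2 fold change was -0.40 ± 0.24 (SE; 95% interval -0.94 to 0.13; limma adjusted p = 0.42), and -0.043 ± 0.18 with size factors. Trak1 averaged 0.932 ± 0.142 and 0.636 ± 0.225 TPM, with 1 library at or above 1 TPM, and was not tested. It overlaps 2 unclassified genes on its own strand, C230053D17Rik (20.8 and 18.1 TPM after PBS and Botox) and Gm47092 (4.03 and 5.31 TPM).

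Tnfaip2, also called M-Sec, promotes tunneling nanotubes and is expressed by macrophages as well as by tumor cells. It was at 26.7, 24.3 and 28.9 TPM after PBS and at 23.0, 20.4, 26.7 and 11.2 TPM after Botox. Botox 3 lay within the PBS range and the other Botox libraries under it. The log2 fold change was -0.43 ± 0.40 (SE; 95% interval -1.30 to 0.44; limma adjusted p = 0.47). Divided by size factors, Tnfaip2 was at 19.1, 20.2 and 22.8 after PBS and at 21.8, 23.2, 22.9 and 25.7 after Botox, with Botox 1 inside the PBS range and a log2 fold change of 0.17 ± 0.12. The macrophage markers summed to 994, 722 and 1051 TPM after PBS and to 189, 952, 677 and 426 TPM after Botox. In Botox 1, where that sum was lowest, Tnfaip2 stayed at 23.0 TPM. The part of macrophage RNA in the level of Tnfaip2 was not tested.

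On deposited TPM, the mitophagy receptors Bnip3l, Bnip3 and Fundc1 had 3 of the 4 lowest log2 fold changes of the 25 tested genes, with Dnm1l the other. With size factors the lowest 4 were Bnip3l (-0.36), Dnm1l (-0.29), Gabpa (-0.23) and Fundc1 (-0.22), and Bnip3 was at -0.17. All 3 receptors sit in the outer membrane and bind LC3 proteins of the autophagosome, and Bnip3 and Bnip3l are classic hypoxia targets. Bnip3l, also called NIX (ENSMUSG00000022051, mm39 chr14:67222688-67246326, minus strand), was at 13.0, 9.62 and 8.60 TPM after PBS and at 6.64, 7.07, 6.39 and 1.98 TPM after Botox. The Botox libraries all lay below the PBS libraries, 3 of them close together and Botox 4 far lower. Its log2 fold change was -0.89 ± 0.41 (SE; 95% interval -1.80 to 0.016; limma unadjusted p = 0.0536, adjusted p = 0.42). Without Botox 4 it was -0.55, and with size factors -0.36 ± 0.20.

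Fundc1 (mm39 chrX:17422803-17438564, minus strand), a receptor that acts in hypoxia, was at 4.35, 3.19 and 3.04 TPM after PBS and at 2.10, 1.72, 2.80 and 1.05 TPM after Botox. The groups were apart in TPM and met after scaling, at 2.40 to 3.12 and 1.96 to 2.41. Its log2 fold change was -0.66 ± 0.30 (SE; 95% interval -1.32 to 0.0061; limma unadjusted p = 0.0518, adjusted p = 0.42), and -0.22 ± 0.13 with size factors. Bnip3 was at 8.06, 7.76 and 9.44 TPM after PBS and at 4.90, 6.90, 6.18 and 2.37 TPM after Botox. No Botox library reached the lowest PBS library, but after division by size factors Botox 2 was the highest of all 7 at 7.85. For Bnip3 the log2 fold change was -0.70 ± 0.36 (SE; limma adjusted p = 0.42), and -0.17 ± 0.19 with size factors. The ratio of Bnip3 to Bnip3l was 0.620, 0.806 and 1.10 after PBS and 0.738, 0.976, 0.967 and 1.20 after Botox. These ranges overlapped, and the log2 difference was 0.22 (exact permutation p = 0.457, 0.610 adjusted over 4 ratios).

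Phb2, an inner membrane prohibitin that can act as a mitophagy receptor, differed from the outer membrane receptors in its order of libraries. Its levels averaged 16.6 ± 1.35 TPM (SD) in the PBS libraries and 13.5 ± 5.14 TPM in the Botox libraries, with Botox 3 the highest library at 19.4 TPM. Phb2 had a log2 fold change of -0.35 on deposited TPM and of 0.24 with size factors. Pink1, a kinase that marks damaged mitochondria for mitophagy, averaged 0.931 ± 0.303 and 0.604 ± 0.285 TPM, with 27 to 83 estimated reads per library, and was not tested.

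**Figure D3:**
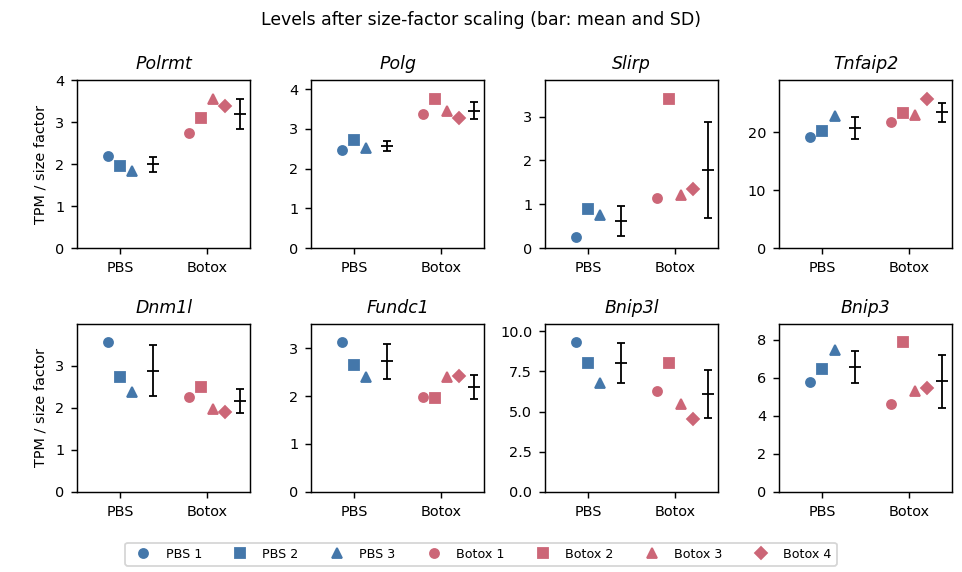
Levels of 8 genes in TPM divided by the size factor of each library, with symbols for the libraries and the mean ± SD beside each group (n = 3 for PBS, n = 4 for Botox); each vertical axis starts at 0. Polrmt, Polg and Slirp lie above the PBS libraries in all 4 Botox libraries, while the groups overlap for the other 5 genes.

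Once the libraries were scaled, the fold changes of the 25 tested genes were ordered by the GC content of their transcripts, a split made after the values were seen. Of the 13 genes at or above their median GC content (52.1% to 62.3%), 10 had a positive log2 fold change, with a median of 0.13; the 3 others were Polg2, Twnk and Trak2. Of the 12 genes below it (38.05% to 50.2%), 10 had a negative one, with a median of -0.13; the 2 others were Slirp and Mief1. Polrmt, with 60.7% GC, was in the upper set, and Dnm1l with 40.9%, Bnip3l with 41.9% and Gabpa with 42.5% in the lower. Across genes, the Spearman rank correlation between GC content and size-factor-scaled log2 fold change was 0.75 over the 25 genes and 0.41 over 7201 tested protein-coding genes. Without Botox 2 and Botox 4 these were 0.66 and 0.48. With genomic span in place of GC content, and all libraries, the rank correlation was -0.50 over the 25 genes and -0.17 over 7241 tested protein-coding genes. Genes of 1 set of libraries share those libraries and are not independent replicates. Slirp, at 44.7% GC, lay outside this order. The part of GC content or span in the difference between Polrmt or Polg and Dnm1l or Bnip3l was not tested.

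**Figure D4:**
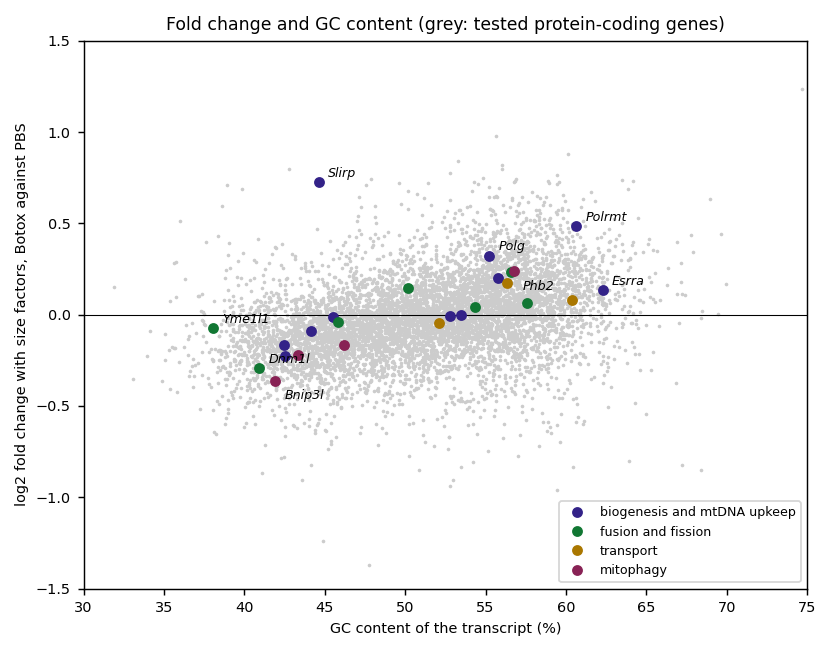
Log2 fold change with size factors, Botox against PBS, against the GC content of the transcript in percent, for 7201 tested protein-coding genes (grey) and the 25 tested genes coloured by role; 4 grey genes fall outside the axes. The coloured points go from negative values near 40% GC to positive values near 60%, as does the grey cloud, and Slirp lies above the other coloured points.

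Other genes of the same processes were read from lists of 88 symbols, of which 87 matched and 53 were tested. All 53 log2 fold changes were negative, beside 93.8% of all tested genes and 97.3% of the protein-coding ones. They ran from -0.72 to -0.024, with a median of -0.48 (-0.023 with size factors). No gene was called (limma, adjusted p of at least 0.42), 4 of 53 were lower at an unadjusted p of 0.05, beside 7.37% of all genes, and in 16 of 53 all Botox libraries were below all PBS libraries, beside 22.4%. By list the medians were -0.40 for upkeep (14 tested), -0.40 for fusion and fission (12), -0.49 for transport and nanotubes (13) and -0.59 for mitophagy (14). With size factors they were 0.0055, -0.0011, -0.13 and -0.046, so that transport, not mitophagy, had the lowest median.

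Kif5b, the kinesin heavy chain that carries mitochondria along with TRAK proteins, was at 4.995, 4.08 and 3.88 TPM after PBS and at 2.65, 2.80, 2.69 and 1.23 TPM after Botox. Its groups did not overlap, with a log2 fold change of -0.70 ± 0.30 (SE; limma unadjusted p = 0.0422, adjusted p = 0.42). Tax1bp1, an adaptor for ubiquitin-marked cargo in autophagy, averaged 3.07 ± 0.420 TPM (SD) in the PBS libraries and 1.57 ± 0.684 TPM in the Botox libraries, with a log2 fold change of -0.71 ± 0.31 (limma unadjusted p = 0.0429, adjusted p = 0.42). Ralb, of the Ral GTPases that act with M-Sec and the exocyst in nanotube formation, averaged 5.20 ± 0.481 and 2.95 ± 0.886 TPM, with a log2 fold change of -0.67. Exoc5, an exocyst subunit looked up after its values were seen, completed the 4 genes at an unadjusted p of 0.05, with a log2 fold change of -0.64. With size factors these 4 log2 fold changes were -0.23 (Kif5b), -0.32 (Tax1bp1), -0.17 (Ralb) and -0.22 (Exoc5).

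On deposited TPM the remaining genes with the smallest p of their lists also had negative values, as did all 53 genes. With size factors the medians of their lists were 0.0055 (upkeep), -0.0011 (fusion and fission) and -0.046 (mitophagy). Creb1, a factor that activates Ppargc1a, averaged 2.83 ± 0.329 TPM (SD) in the PBS libraries and 1.64 ± 0.567 TPM in the Botox libraries, and Prkaa1, a catalytic subunit of the energy sensor AMPK, 4.74 ± 1.003 and 2.75 ± 1.22 TPM. Mtch2, an outer membrane protein, averaged 3.35 ± 1.04 and 1.80 ± 1.16 TPM, and Mtfr1, a fission regulator, 2.49 ± 0.559 and 1.52 ± 0.628 TPM. Rab7, the GTPase of late endosomes and lysosomes, averaged 6.90 ± 0.975 and 4.31 ± 1.24 TPM. The means from Creb1 to Rab7 are on deposited TPM only, the scale on which all 53 fold changes were negative. Inf2, a formin of the endoplasmic reticulum that acts in fission, was singled out after its values were seen. It was the 1 gene of the 53 higher at an unadjusted p of 0.05 with size factors, beside 2.26% of all genes, at scaled means of 4.35 ± 0.379 after PBS and 6.01 ± 0.877 after Botox (log2 fold change 0.38 ± 0.14, limma adjusted p = 0.92).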

How the data were processed

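Each of the 7 libraries (3 PBS, 4 Botox) comes from mCherry-positive 4T1 cells. The labels' protocols name Trizol, ribodepletion and a stranded kit read from both ends. The authors deposited TPM with a constant of 0.001 added to each of 57126 genes, found from the column totals and subtracted here. The length column equals stop minus start for all 57126 genes, so TPM divides by genomic span. The submitters' processing notes list mm39, Bowtie2 2.2.5, SAMtools and DESeq2 without roles. Which counter was run, with which strand setting and rule for multi-mapping reads, is not given in the sources used here. A second deposited table, on KEGG sets, was not used. TPM times span fell on multiples of 1 step, the value of 1 read, in each library (89.3% to 90.7% of values below 20 reads no more than 0.1 from a whole number, where chance gives 20.0%). That step gave the estimated reads, which describe depth and entered no count test. Without molecular identifiers, reads may be copies of 1 molecule.

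The 11260 genes at 1 TPM or more in 3 or more libraries entered limma 3.58.1 as log2(TPM + 1) (R 4.3.3; intensity trend, two-sided, Benjamini-Hochberg over all tested genes, threshold 0.05), with the group as the only term. Fold changes are on this log2(TPM + 1) scale and understate those of low genes. Size factors are medians of ratios over the tested genes. Ratios within a library used TPM without a pseudocount and exact permutation tests over 35 arrangements, adjusted over 4 ratios. Python 3.11.15, numpy 2.4.6, pandas 2.3.3 and scipy 1.17.1 were used for the rest. The fit and the search for the step were tested on simulated data. GC content is that of GENCODE vM21 transcripts (GRCm38) joined by gene ID, and promoter windows are RefSeq's on GRCm38.p6; no coordinates were moved between builds.

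The 36 genes and the lists of other genes and markers were chosen with earlier results of these data known. Named with values per library were the 3 tested genes of smallest p in each role, the 8 genes of the ratios and Tnfaip2, and outside this rule, after their values were seen, Polrmt, Polg and Nrf1; of the other lists, the 2 genes of smallest p in each. Alternatives were other scalings, pseudocount, filter, array weights, a replicate block and left-out libraries.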

Additional observations from a re-analysis of the deposited data

Results flagged for a closer look

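In 4 of 40 groups of 4 Botox values checked (the 36 genes in TPM and the 4 ratios), 1 library lay apart from the other 3, measured as its gap to the nearest library divided by the range of the group, where 0.829 is the 95% limit of Dixon's test for 4 values. Chance alone gives about 1 in 20 such groups, and neighbouring values of 1 library are not independent. Botox 4 was low for Tfb2m (0.913), for Dnm1l (0.87) and for Bnip3l (0.867). Botox 3 was low for the ratio of Dnm1l to Opa1 (0.864). Groups of 3 PBS values were not tested this way.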

How the results depend on the processing

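Over 16 alternatives for the 25 tested genes, 0 genes were called (limma; smallest adjusted p 0.193, with array weights), 349 of 400 fold changes kept their direction and 51 turned. With size factors, values that turned from below to above 0 were those of Polg 0.32, Esrra 0.13, Pprc1 0.20, Mfn2 0.044, Fis1 0.23, Mief1 0.14, Mief2 0.062, Rhot2 0.078, Tnfaip2 0.17 and Phb2 0.24, with group medians of 0.078 for transport and -0.19 for mitophagy. With quantile normalization the turned values were Polg 0.30, Ssbp1 0.042, Esrra 0.11, Pprc1 0.10, Mfn2 0.046, Fis1 0.39, Mief1 0.086, Mief2 0.057, Rhot2 0.060, Trak2 0.029, Tnfaip2 0.11 and Phb2 0.15, with medians of 0.00021 for all genes, 0.060 for transport and -0.24 for mitophagy. With nuclear protein-coding genes rescaled the turned values were Polg 0.42, Esrra 0.16, Pprc1 0.22, Mfn2 0.052, Fis1 0.37, Mief1 0.17, Mief2 0.077, Rhot2 0.093, Tnfaip2 0.17 and Phb2 0.25, with a transport median of 0.093. Array weights gave Polg 0.089 and Polg2 0.092. Without Botox 2 and Botox 4, Polg was 0.15, Polg2 0.040, Twnk 0.053, Phb2 0.081 and the log2 ratio of Mfn1 to Mfn2 -0.26. Size factors without both gave Polg 0.31, Polg2 0.21, Twnk 0.24, Pprc1 0.096, Mfn2 0.10, Fis1 0.049, Mief2 0.11, Tnfaip2 0.11, Phb2 0.28, and medians of 0.0041 for all genes and 0.096 for biogenesis. The cause of these turns was not tested.

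Of all genes, 1 was called higher with size factors, quantile normalization or array weights (Gm16304, looked up after its values were seen), and 22 lower without the filter. Leaving out 1 library gave 0 to 3 higher and 0 to 71 lower, the highest counts without Botox 1. It gave -0.11 to 0.24 for Polrmt, -0.24 to 0.10 for Polg and -0.24 to 0.15 for the log2 ratio of Mfn1 to Mfn2. Same-numbered libraries were not paired (correlations of 0.093, -0.029 and -0.18), and the replicate block, in which Botox 4 stands alone and drops out, changed no call among the 36 genes and turned Polg to 0.10. The filter of 1 TPM, which divides by genomic span, kept 11 of the 36 genes out of the test: Trak1 was among them with 668 to 1588 estimated reads per library. Depth limits Ppargc1a, Tfb1m and Ppargc1b, with at most 27, 37 and 45.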
